A study of Mus musculus with 4 samples.

Results

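Genes for the import of proteins into mitochondria and for the shaping of cristae were followed in ribosome profiling data of mouse hearts. Ribosome profiling sequences the mRNA fragments that ribosomes protect from digestion, so a footprint level reflects how much of an mRNA is being translated. The set was chosen by name: every Timm, Tomm or Chchd gene whose symbol goes on with a number, plus Samm50, Mtx1, Mtx2, Pam16, Dnajc19, Grpel1 and Immt, with the pseudogene row Chchd2-ps left out. This gave 41 genes of the 55382 in the deposited tables. The hearts came from mice killed on day 15 after birth. There were 2 libraries labelled WT, from NAT10-FF mice, and 2 labelled KO, from NAT10-CKO mice, a conditional knockout of Nat10, the gene of an RNA cytidine acetyltransferase. The Cre driver, the cells in which it acts and the meaning of FF were not given in the sources used here. The same holds for strain and sex. Nothing says that replicates come from different animals, and p-values then reflect only how these libraries vary, which may be technical. All 4 samples received cycloheximide at 100 µg/mL, which holds ribosomes on their mRNAs, and all carry the same batch label. The labels name cardiomyocytes as the cell type, but the protocols describe about 100 mg of whole heart tissue.

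Nearly all mitochondrial proteins are made in the cytosol and imported. The TOM complex forms the entry gate of the outer membrane, the SAM complex inserts barrel proteins there, small Tim chaperones carry membrane proteins across the space between the membranes, and the TIM22 and TIM23 complexes pass proteins into or through the inner membrane, the latter with an ATP-driven motor on the matrix side. The MICOS complex holds the necks of the cristae, the inner membrane folds that carry the respiratory chain, and Chchd4, with Gfer, runs the disulfide relay that traps small cysteine-rich proteins in the intermembrane space. Heart muscle is dense in mitochondria and depends on these routes for its respiratory chain.

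Promoter sequences were matched for 36 of the 41 genes in RefSeq (build GRCm38.p6), in windows of 300 bases. Most of these windows lie largely upstream of the annotated gene start. They were searched on both strands for short cores of factors known to act on nuclear genes of mitochondria, none of which contains another. The ETS core CCGGAAG, the type bound by GABP, was present in 15 of the 36 genes (41.7%), against 9.93% of all 27025 genes. Among genes tested for footprints it was present in 14 of 32 import and cristae genes (43.8%) and in 18.8% of 10717 other genes. The YY1 core, ATGGCGG, was found in 6 genes (16.7%, against 4.69% of all genes), and among tested genes in 18.8% against 8.66%. The NRF1 core, GCATGCGC, was found in 2 genes, Grpel1 and Timm13 (5.56%, against 3.05% of all genes). Among tested genes its shares lay close together, at 6.25% for the import and cristae genes and 5.65% for the others. No window of these genes held the CRE letters TGACGTCA, which 2.03% of all genes and 3.42% of the other tested genes did. The common TATA box letters, TATAAA, were in 4 (11.1%, against 15.7% of all genes), or 12.5% against 9.85% among tested genes. The median GC content was 58.3% in the windows of these genes and 52.7% in all windows, so base composition differs with the motif counts, and its part in them was not tested. A match describes letters and does not show a bound site. The windows shown are those of Immt, the member with the highest footprint level, of Timm10 with 3 ETS matches, of which 2 overlap, of Grpel1 with all 3 of the ETS, NRF1 and YY1 cores, and of Timm13, an NRF1 holder that returns in the RNA and efficiency results. Capitals mark the ETS, NRF1 and YY1 matches on either strand. The Immt window lies mostly inside the annotated gene, which starts at chr6:71831091, and so do both its ETS matches. The YY1 match of Grpel1 also lies inside its annotated gene, which starts at chr5:36465185. So do the 2 overlapping ETS matches of Timm10, whose gene starts at chr2:84827021.
Immt (chr6:71831070-71831369, plus strand): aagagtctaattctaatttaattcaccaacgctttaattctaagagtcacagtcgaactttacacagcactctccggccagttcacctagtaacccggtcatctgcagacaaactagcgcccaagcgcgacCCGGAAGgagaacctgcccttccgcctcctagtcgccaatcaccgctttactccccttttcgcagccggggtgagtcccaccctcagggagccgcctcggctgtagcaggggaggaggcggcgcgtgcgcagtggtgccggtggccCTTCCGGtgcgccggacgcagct
Timm10 (chr2:84826771-84827070, plus strand): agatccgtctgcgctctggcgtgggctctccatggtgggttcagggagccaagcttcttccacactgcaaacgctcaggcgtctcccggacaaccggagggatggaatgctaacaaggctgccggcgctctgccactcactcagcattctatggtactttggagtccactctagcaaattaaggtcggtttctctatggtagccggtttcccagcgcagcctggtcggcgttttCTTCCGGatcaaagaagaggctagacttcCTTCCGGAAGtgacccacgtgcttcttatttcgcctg
Grpel1 (chr5:36464935-36465234, plus strand): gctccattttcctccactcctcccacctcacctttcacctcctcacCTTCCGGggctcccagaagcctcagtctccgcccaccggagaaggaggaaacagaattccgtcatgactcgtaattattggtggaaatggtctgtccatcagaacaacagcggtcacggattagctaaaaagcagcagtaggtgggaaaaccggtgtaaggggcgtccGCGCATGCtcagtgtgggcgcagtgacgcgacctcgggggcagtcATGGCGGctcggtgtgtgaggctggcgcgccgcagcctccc
Timm13 (chr10:80900920-80901219, minus strand): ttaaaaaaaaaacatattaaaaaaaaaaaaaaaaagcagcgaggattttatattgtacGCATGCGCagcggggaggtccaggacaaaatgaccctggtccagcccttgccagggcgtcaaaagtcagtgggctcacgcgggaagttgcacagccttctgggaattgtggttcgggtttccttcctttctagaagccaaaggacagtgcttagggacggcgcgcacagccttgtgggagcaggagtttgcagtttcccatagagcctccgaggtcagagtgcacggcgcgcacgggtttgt

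The authors deposited a footprint level for each gene and library in FPKM (fragments relative to gene length and library size) and a translation efficiency, TE, a ratio of footprints to RNA. FPKM divided by TE had no more than 6 significant digits in all 59296 quotients (relative tolerance 1e-10), so it was used as the RNA level behind TE and is called the implied RNA level. Read totals are unknown, since FPKM does not keep them. The summed FPKM was 7.04e+06 to 8.73e+06 per library, of which 48.9 to 57.0% was assigned to mitochondrial tRNA genes. The 41 genes made up 0.135 and 0.148% (WT) against 0.111 and 0.116% (KO) of the summed FPKM. The targeted gene, Nat10, was 77.3 and 73.9 (WT) against 40.0 and 52.1 (KO) FPKM (difference -0.71 in log2 with SE 0.30, adjusted p = 0.295), lower in both KO libraries and not past the test. Summed markers of cardiomyocytes, 10 of 10 genes found, were 304224 and 351138 FPKM (WT) against 204775 and 210710 (KO), and 9 of the 10 were lower in both KO libraries. Summed fibroblast markers, 8 of 8 found and all higher in both KO libraries, were 11596 and 8890 FPKM (WT) against 28122 and 38309 (KO). Endothelial markers summed to 1401 to 1637 FPKM (WT) against 1986 to 3167 (KO), with 5 of 6 higher in both KO libraries. Macrophage markers (6 genes) summed to 330.3 to 534 FPKM (WT) against 497 to 1007 (KO), with 2 of 6 higher in both KO libraries and 0 lower. Erythroid markers (4 genes) summed to 810.0 to 1011 and 613 to 1198, with 0 separated. Mural markers (5 genes) summed to 4020 to 4436 and 2925 to 3423, a sum made up mostly of Acta2, which was 3365 and 3959 (WT) against 2721 and 1816 (KO), whereas 3 of the 5 were higher in both KO libraries. None of the markers was at 0 in all libraries or past the test. The fat markers Adipoq and Plin1 were at 4.73 and 13.3 FPKM in KO replicate 1 and listed at 0 in the other 3 libraries. Their implied RNA levels in KO replicate 1 were only 0.162 and 0.0553 FPKM. Of the neuronal markers, Snap25 was at 0 and 0 (WT) against 1.05 and 0 (KO) FPKM. Syt1 was at 0.570 and 0.264 (WT) against 0.990 and 0 (KO). In bulk tissue, fewer cells of a type and less RNA per cell cannot be told apart, and the part of these markers in the values below was not tested.

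In WT hearts the footprint levels of the set ranged from the top of all genes to near 0. Immt, which encodes mitofilin, the core of MICOS, stood highest at 2545 ± 304 (SD, n = 2) FPKM, at percentile 98.9 of all tested genes. Chchd10, an intermembrane space protein abundant in heart, followed at 1768 ± 132 (SD, n = 2) FPKM, percentile 98.6. Immt (chr6:71831091-71875266 in GRCm38.p6) and Chchd10 (chr10:75933130-75937750) together held 42.7 and 40.1% (WT) against 33.6 and 37.9% (KO) of the set's summed FPKM. Timm17a, a channel subunit of TIM23, came next at 728 ± 97.5 (SD, n = 2) FPKM and led its complex, ahead of Chchd3 of MICOS at 598 ± 67.2 (SD, n = 2). In WT the lower Timm17a value stood just above the higher Chchd3 value, and the levels of Samm50, Mtx2 and Timm8b, the leaders of SAM and of the small Tim chaperones, lay within each other's range. Tomm6 led the TOM complex at 347 ± 49.0 (SD, n = 2) FPKM, and Timm44 led the import motor at 214 ± 47.9 (SD, n = 2). At the low end, 4 genes stayed outside the test: Tomm20l, Timm8a1 and Timm8a2 were listed at 0 in all libraries, and Tomm6os, annotated antisense to Tomm6, did not exceed 0.0241 FPKM. The other 37 genes passed the filter of at least 1 FPKM in at least 2 libraries, and 34 of them had a TE in all 4 libraries.

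**Figure D1:**
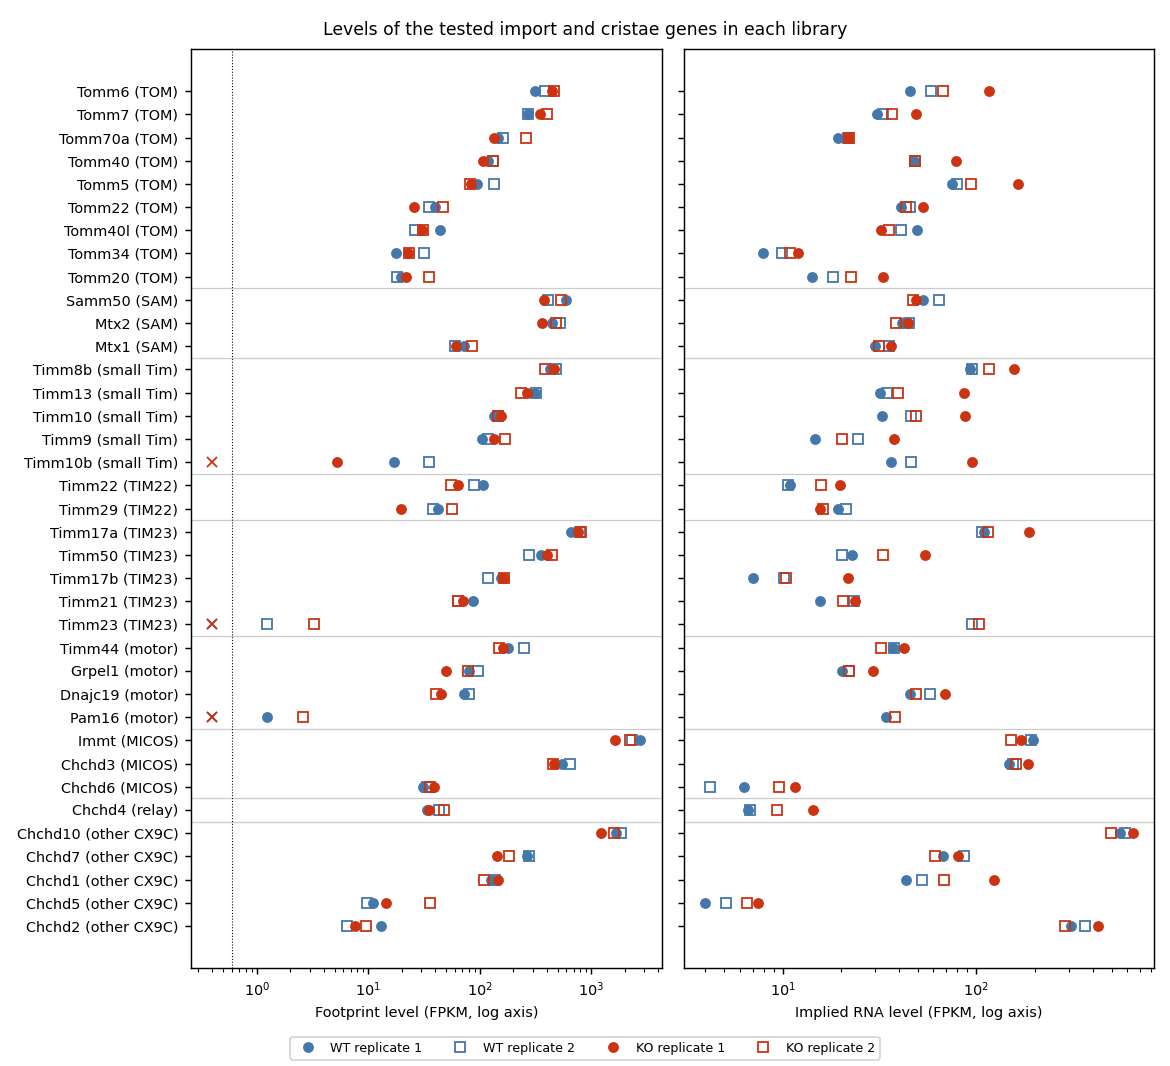
Footprint level (left) and implied RNA level (right) in FPKM on log axes for the 37 tested genes, grouped by complex, with WT in blue, KO in red, replicate 1 as filled circles and replicate 2 as open squares. Crosses left of the dotted line are values listed at 0; Immt and Chchd10 have the highest footprint levels, and Chchd2 combines a high implied RNA level with a footprint level near 10 FPKM.

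Chchd2, Timm23 and Pam16 combined high RNA with very few footprints. Chchd2, a paralogue of Chchd10, had implied RNA levels of 308 and 364 (WT) against 427 and 286 (KO) FPKM, percentile 98.7 in WT. Its footprint levels were 12.9 and 6.51 (WT) against 7.55 and 9.49 (KO) FPKM, percentile 37.0, which gave TE values of 0.0420 and 0.0179 (WT) against 0.0177 and 0.0332 (KO) and percentile 0.3 of all genes. Timm23, the central channel subunit of TIM23, was listed at 0 and 1.25 (WT) against 0 and 3.28 (KO) FPKM, while its implied RNA level was 95.4 in WT replicate 2 and 104 in KO replicate 2, where a TE was given. Pam16, a motor regulator, was listed at 1.24 and 0 (WT) against 0 and 2.59 (KO) FPKM beside implied RNA levels of 34.2 in WT replicate 1 and 38.0 in KO replicate 2. For Timm23 and Pam16 an exact 0 stood in 1 WT and 1 KO library each. Short footprints that match near-identical copies can be lost or split, and these 3 levels are therefore uncertain. How such reads were handled was not given in the sources used here. They are kept in the counts.

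Translation efficiency spanned a wide range in WT. The highest TE of the set was that of Timm17b, the other Tim17 form, at 22.0 and 11.8 (percentile 95.5), followed by Timm50, the TIM23 receptor, at 15.7 and 13.7 (percentile 94.0) and Immt at 14.1 and 12.1 (percentile 92.4). The values of these 3 genes overlap between libraries. At the other end, after Chchd2, stood TOM subunits: Tomm40l at percentile 7.6, the receptor Tomm22 at 9.2 and the receptor Tomm20 at 13.7.

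**Figure D2:**
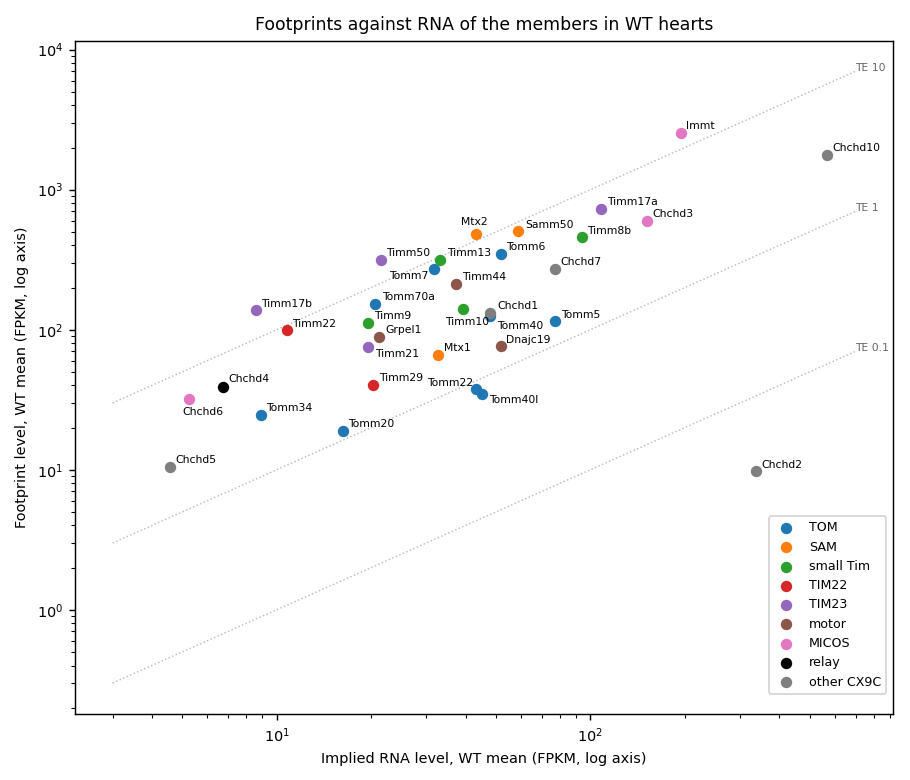
Mean WT footprint level against mean WT implied RNA level, both in FPKM on log axes, for the 34 genes with a TE in all libraries, coloured by complex. Dotted lines mark a TE of 0.1, 1 and 10; Timm17b, Timm50 and Immt lie above the line of 10, as does Mtx2, Tomm22 and Tomm40l lie below the line of 1, and Chchd2 lies below the line of 0.1.

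The KO against WT comparison asks which ribosome-protected mRNAs depend on NAT10. No import or cristae gene passed the test for footprints: limma called 0 of 37 in either direction at an adjusted p of 0.05, where it called 0.379% of all 15031 genes. At an unadjusted p under 0.05 there were 4 genes, all lower in KO (Timm10b, Dnajc19, Chchd7 and Timm22; 10.8%), where 3.8% of all genes were lower at that p. The tested genes as a whole read higher in KO, with a median log2 difference of 0.36, whereas the median of the set was -0.11, or -0.47 relative to all genes; leaving out 1 library gave -0.53 to -0.34, and a pseudocount of 10 in place of 1 gave -0.28. Of the 37 genes, 30 lay below the all-gene median. Both KO libraries were above both WT libraries for 8 genes (21.6%, against 39.5% of all genes) and below them for 11 genes (29.7%, against 12.1%), and the groups overlapped for 18. Of all 15031 genes, 10693 had a difference above 0. As deposited, 15 of the 37 differences of the set were above 0. After median-ratio scaling between libraries 8 were, with Tomm70a, Timm10, Chchd6, Timm17b, Chchd4, Timm17a and Mtx1 turning below 0. Leaving out 1 library turned the sign of 4 to 7 of the 37 differences, and of 17 genes at least once. The lower cardiomyocyte and higher fibroblast marker sums in both KO libraries stand beside every count in this comparison, and their part was not tested. Values of single genes are given by complex, as footprint FPKM of replicate 1 and then replicate 2.

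**Figure D3:**
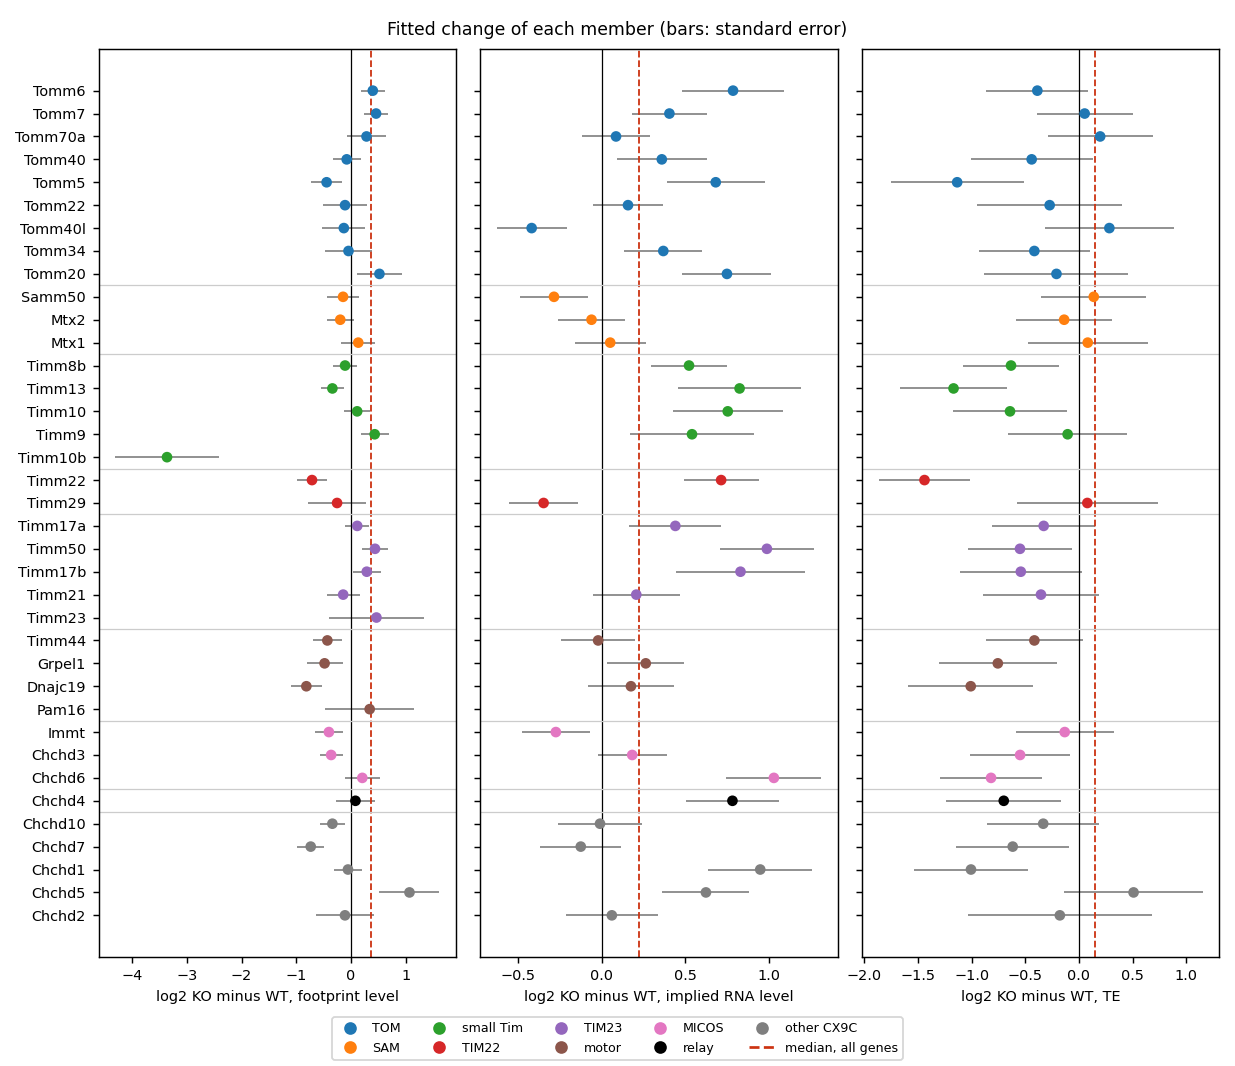
Fitted log2 difference, KO minus WT, of footprint level, implied RNA level and TE for the 37 tested genes (34 for RNA and TE), with bars of 1 standard error and colours by complex. The dashed red line is the median of all tested genes; most footprint and TE points lie left of it, while the RNA points lie on both sides, and Timm10b lies far left in footprints with a wide bar.

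Of the 9 tested Tomm genes, Tomm6, Tomm7 and Tomm20 had both KO libraries above WT (33.3%, against 39.5% of all genes). Tomm5 had both below (11.1%, against 12.1% of all genes), so these shares lay near those of all genes. Tomm7, a small subunit that tunes the stability of the gate, had footprint levels of 274 and 273 (WT) against 348 and 405 (KO) FPKM (difference 0.46 in log2 with SE 0.22, adjusted p = 0.339). Both KO values lay above both WT values. Tomm20, the receptor for presequences, was 19.6 and 18.3 (WT) against 21.7 and 34.9 (KO) (difference 0.52 in log2 with SE 0.41, adjusted p = 0.536), where KO replicate 2 was high and KO replicate 1 lay close to WT. Tomm6, another small subunit, was 312 and 382 (WT) against 450.2 and 460.1 (KO) (difference 0.40 in log2 with SE 0.22, adjusted p = 0.394), again without overlap. After median-ratio scaling these differences shrank to 0.08, 0.16 and 0.02. Tomm5, the third small subunit here, went the other way at 94.7 and 136 (WT) against 83.9 and 81.7 (KO) (difference -0.45 in log2 with SE 0.29, adjusted p = 0.454). Its KO values were both under its WT values. The channel Tomm40 was 118 and 133 (WT) against 107 and 130.4 (KO) and its heart-expressed relative Tomm40l 43.7 and 26.1 (WT) against 30.7 and 30.8 (KO), with overlapping groups in each. Tomm70a, the receptor for carrier proteins, was 145 and 162 (WT) against 133 and 261 (KO), high in KO replicate 2 only. Tomm22 and Tomm34 had differences of -0.11 and -0.05 and overlapped.

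The SAM complex did not separate by genotype. Samm50, the barrel that inserts other barrels, was 595 and 412 (WT) against 375 and 533 (KO) FPKM (log2 difference -0.15, adjusted p = 0.824). Mtx2 was 445 and 524 (WT) against 363 and 488 (KO) and Mtx1 71.7 and 60.1 (WT) against 60.9 and 85.1 (KO), both metaxins on the cytosolic side of SAM. In all 3 genes KO replicate 1 had the lower KO value, and the groups overlapped.

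Among the small Tim chaperones and the TIM22 complex, which insert carriers of the inner membrane, the lower KO values were those of Timm13, Timm10b and Timm22. Timm22 (chr11:76406925-76416313), the channel of the carrier route, was 108 and 89.3 (WT) against 63.9 and 55.5 (KO) FPKM (difference -0.71 in log2 with SE 0.28, adjusted p = 0.279). Both KO libraries were below both WT libraries. Timm13 was 315 and 317 (WT) against 264 and 235 (KO) (log2 difference -0.34, adjusted p = 0.444), also without overlap. Timm10b, the small Tim that docks the chaperones on TIM22, was 17.2 and 35.4 (WT) against 5.25 and 0 (KO), with the largest fitted difference of the set (difference -3.37 in log2 with SE 0.95, adjusted p = 0.208). It is a weakly covered row whose WT values lie far apart, and its KO replicate 2 value of 0 may be a failed estimate. The difference was -2.04 without KO replicate 2, -4.69 without KO replicate 1, -1.51 with a pseudocount of 10 and -5.08 with one of 0.1, and a stricter filter on low values leaves the gene out. Timm9 was 104 and 119 (WT) against 135 and 168 (KO) (log2 difference 0.43, adjusted p = 0.421), higher in both KO libraries and at 0.06 after scaling. Its partner Timm10 was 134 and 147 (WT) against 156 and 146 (KO) and Timm8b 430.2 and 486 (WT) against 463 and 388 (KO). The groups overlapped for both, and for Timm29, a TIM22 subunit, the KO values of 19.7 and 56.5 lay on both sides of WT.

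The TIM23 translocase and its motor act one after the other on presequence proteins. Of the 5 TIM23 genes, 2 had both KO libraries above WT (40%, against 39.5% of all genes) and 0 had both below. That share is near the one of all genes, and the TIM23 median was -0.07 relative to all genes. Of the 4 motor genes, 3 had both KO libraries below WT (75%, against 12.1% of all genes) and 0 had both above. Timm50 was 358 and 276 (WT) against 405 and 448 (KO) FPKM (difference 0.44 in log2 with SE 0.24, adjusted p = 0.383). Both KO values exceeded both WT values, and the scaled difference was 0.07. Timm17b was 156 and 120.0 (WT) against 167 and 167 (KO) (log2 difference 0.29), higher in both KO libraries but at -0.08 after scaling. Timm17a was 659.6 and 797 (WT) against 755 and 815 (KO), with overlapping groups, as for Timm21, a subunit that links the translocase to the respiratory chain (log2 difference -0.14). In the motor, Dnajc19, the J-protein that stimulates the mitochondrial Hsp70, was 72.9 and 79.6 (WT) against 44.9 and 40.8 (KO) FPKM (difference -0.82 in log2 with SE 0.29, adjusted p = 0.249). Grpel1, its nucleotide exchange factor, was 81.0 and 96.9 (WT) against 50.4 and 78.9 (KO) (difference -0.48 in log2 with SE 0.33, adjusted p = 0.474). Timm44, which anchors Hsp70 at the channel, was 179.8 and 248 (WT) against 162 and 150.4 (KO) (log2 difference -0.43, adjusted p = 0.424). Each of these 3 motor genes was below WT in both KO libraries, Grpel1 in KO replicate 2 only just, and the fourth, Pam16, was too low to compare. Summed over its 4 genes the motor was at 335 and 424 FPKM (WT) against 257 and 273 (KO), while the 5 TIM23 genes summed to 1261 and 1258 (WT) against 1399 and 1497 (KO). The difference between the complexes was not tested. Grpel1 is the gene whose promoter window holds the ETS, NRF1 and YY1 cores. A link of these letters to its levels was not tested.

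Of MICOS, the abundant subunits were lower in KO. Immt was 2760.1 and 2331 (WT) against 1631 and 2247 (KO) FPKM (difference -0.41 in log2 with SE 0.25, adjusted p = 0.438). KO replicate 1 was the lowest library and KO replicate 2 lay just under the lower WT value. Chchd3 was 550.2 and 645 (WT) against 466 and 459 (KO) (log2 difference -0.36, adjusted p = 0.410), lower in both KO libraries, while its paralogue Chchd6 was 31.1 and 33.4 (WT) against 38.8 and 35.9 (KO) (log2 difference 0.21), higher in both, although -0.16 after scaling. Chchd4, the oxidoreductase of the disulfide relay, was 34.0 and 43.6 (WT) against 34.8 and 47.7 (KO) with overlapping groups. Among other proteins of the twin cysteine motif family, Chchd7 was 265 and 278 (WT) against 143 and 184 (KO) (difference -0.74 in log2 with SE 0.24, adjusted p = 0.237), and both its KO values were clearly under WT. Chchd10 was 1675 and 1861 (WT) against 1220.0 and 1590.2 (KO) (log2 difference -0.34, adjusted p = 0.474), also lower in both KO libraries. Chchd5 had the largest positive difference of the set, at 11.1 and 9.86 (WT) against 14.6 and 36.1 (KO) (difference 1.07 in log2 with SE 0.55, adjusted p = 0.363), carried by KO replicate 2. Chchd1, which is also a protein of the mitochondrial ribosome, was 127 and 138 (WT) against 146 and 111 (KO) and overlapped.

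The implied RNA level gave another picture. No gene of the set passed the test (0 of 34 in either direction, where 5.73% of 12529 genes were called), and 8 genes, all higher in KO, had an unadjusted p under 0.05 (23.5%, where 21.1% of all genes were higher at that p). The median log2 difference was 0.36 against 0.22 for all tested genes. Above 0 were 26 of 34 differences (8090 of 12529 over all genes), and 19 of 34 lay above the all-gene median. Both KO libraries exceeded both WT libraries for 18 genes (52.9%, against 44.2% of all genes) and were under them for 4 (11.8%, against 18.6%). After median-ratio scaling 19 of the 34 differences were above 0, with Tomm22, Tomm70a, Timm21, Dnajc19, Chchd3, Mtx1 and Chchd2 turning below it. Leaving out 1 library turned the sign of 3 or 4 differences.

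The genes with the largest RNA differences came from several complexes. Chchd6 had implied RNA levels of 6.30 and 4.24 (WT) against 11.6 and 9.58 (KO) FPKM (difference 1.03 in log2 with SE 0.28, adjusted p = 0.0791). Timm50 was at 22.8 and 20.2 (WT) against 54.6 and 33.1 (KO) (difference 0.99 in log2 with SE 0.28, adjusted p = 0.0844). In both genes the KO libraries were above WT, Timm50 most in KO replicate 1. Chchd1 was at 43.5 and 52.2 (WT) against 124 and 68.4 (KO) (difference 0.95 in log2 with SE 0.31, adjusted p = 0.113). Timm17b was at 7.07 and 10.1 (WT) against 21.8 and 10.4 (KO) (difference 0.83 in log2 with SE 0.39, adjusted p = 0.213). Timm13 was at 31.7 and 34.5 (WT) against 86.9 and 39.5 (KO) (difference 0.83 in log2 with SE 0.37, adjusted p = 0.197). For Chchd1, Timm17b and Timm13 the KO replicate 1 value stood far above the rest. KO replicate 2 was little above the higher WT value for Timm17b and Timm13 and further above it for Chchd1. Timm22, at 11.0 and 10.6 (WT) against 19.9 and 15.8 (KO), and Chchd4, at 6.66 and 6.80 (WT) against 14.4 and 9.32 (KO), were likewise higher in both KO libraries. All 4 small Tim chaperones with a TE had RNA differences of 0.52 to 0.83. At the other end, Tomm40l was 49.5 and 40.8 (WT) against 32.1 and 35.2 (KO) (difference -0.42 in log2 with SE 0.21, adjusted p = 0.239), with both KO values under WT. Timm29 was 19.2 and 21.4 (WT) against 15.7 and 16.2 (KO) (difference -0.35 in log2 with SE 0.20, adjusted p = 0.301). Samm50 was 53.2 and 64.1 (WT) against 48.8 and 47.1 (KO) (log2 difference -0.28). Immt was 196 and 192 (WT) against 169.9 and 152 (KO) (log2 difference -0.27). Those 4 were the genes with both KO libraries under both WT libraries. Chchd7, the next lowest, was 67.5 and 86.5 (WT) against 80.6 and 61.0 (KO) and overlapped. Immt was thus lower in both KO libraries in footprints and in RNA.

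Translation efficiency was lower in KO relative to all genes across most of the set, without a gene past the test. limma called 0 of 34 genes, and 0% of all 12529, at an adjusted p of 0.05; at an unadjusted p under 0.05 there was 1 gene, Timm22, lower in KO (2.94%, where 1.38% of all genes were lower at that p). The median log2 difference was -0.40, or -0.55 relative to the all-gene median of 0.15, and 31 of the 34 genes lay below that median. Both KO libraries were under both WT libraries for 14 genes (41.2%, against 12% of all genes), and no gene had both KO libraries above WT (24% of all genes did). Before scaling 7 of 34 differences were above 0 (7458 of 12529 over all genes). After it 3 of the 34 were, with Samm50, Tomm7, Timm29 and Mtx1 turning. Leaving out 1 library turned 3 to 10 differences, the 10 without KO replicate 1.

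Timm22 had TE values of 9.87 and 8.42 (WT) against 3.21 and 3.52 (KO) (difference -1.44 in log2 with SE 0.43, adjusted p = 0.777). Its KO values were both well under WT, with lower footprints and higher RNA in both KO libraries. Timm13 was at 9.93 and 9.19 (WT) against 3.04 and 5.94 (KO) (difference -1.17 in log2 with SE 0.49, adjusted p = 0.806). Tomm5 was at 1.26 and 1.70 (WT) against 0.513 and 0.868 (KO) (difference -1.13 in log2 with SE 0.62, adjusted p = 0.828). Chchd1 was at 2.92 and 2.63 (WT) against 1.18 and 1.62 (KO) (difference -1.01 in log2 with SE 0.53, adjusted p = 0.828). All 3 were lower in both KO libraries and lowest in KO replicate 1. Dnajc19 was at 1.60 and 1.37 (WT) against 0.649 and 0.839 (KO) (difference -1.01 in log2 with SE 0.58, adjusted p = 0.841), and with Grpel1 and Timm44 made all 3 motor genes with a TE lower in both KO libraries. The genes at the upper end did not separate. Chchd5 was 2.78 and 1.92 (WT) against 1.96 and 5.52 (KO) (difference 0.51 in log2 with SE 0.65, adjusted p = 0.934). Tomm70a was 7.45 and 7.46 (WT) against 6.14 and 11.9 (KO) (log2 difference 0.20), and in both genes KO replicate 2 was the highest library. Tomm40l was 0.882 and 0.638 (WT) against 0.955 and 0.873 (KO) (log2 difference 0.28). Samm50 was 11.2 and 6.42 (WT) against 7.69 and 11.3 (KO) and Mtx1 2.40 and 1.69 (WT) against 1.67 and 2.72 (KO), with differences of 0.14 and 0.08 that became -0.01 and -0.06 after scaling. Set side by side in the 34 genes, the RNA difference exceeded the footprint difference in 27; 13 genes had footprints below and RNA above the respective all-gene median, 15 were below in both, 6 above in both, and 0 had the opposite combination. TE is computed from footprints and RNA, so these counts are not independent of the TE values. The shares of all genes in these combinations were not computed.

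The KO libraries did not behave alike, and this bears on the RNA and TE values most. KO replicate 1 had the highest implied RNA level of the 4 libraries in 27 of the 34 genes (79.4%, against 44.1% of all tested genes) and the lowest TE in 30 (88.2%, against 33.7%). Its RNA exceeded that of KO replicate 2 in 31 genes, a count whose share over all genes was not computed. Against the WT mean, the median RNA difference of the set was 0.54 in KO replicate 1 and 0.10 in KO replicate 2, where all genes had 0.26 and 0.19. For TE these medians were -0.73 and 0.01, against -0.03 and 0.33 for all genes, so the set lay below all genes in both libraries and clearly below the WT mean in KO replicate 1. For footprints they were -0.17 and 0.05, against 0.25 and 0.54. Without KO replicate 1 the set's RNA median was -0.10 relative to all genes in place of 0.14, the TE median -0.32 in place of -0.55 and the footprint median -0.45 in place of -0.47. Without KO replicate 2, 15 of the 34 genes rose in RNA (limma, adjusted p of 0.05, with the lone KO library assumed to vary like the WT pair), where 21% of all genes rose: Chchd1, Chchd4, Chchd6, Timm8b, Timm10, Timm13, Timm17a, Timm17b, Timm22, Timm50, Tomm5, Tomm6, Tomm7, Tomm20 and Tomm40. KO replicate 1 is also the library with the fat marker footprints given above. The implied RNA levels of these markers there were only 0.162 and 0.0553 FPKM, and their part was not tested.

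**Figure D4:**
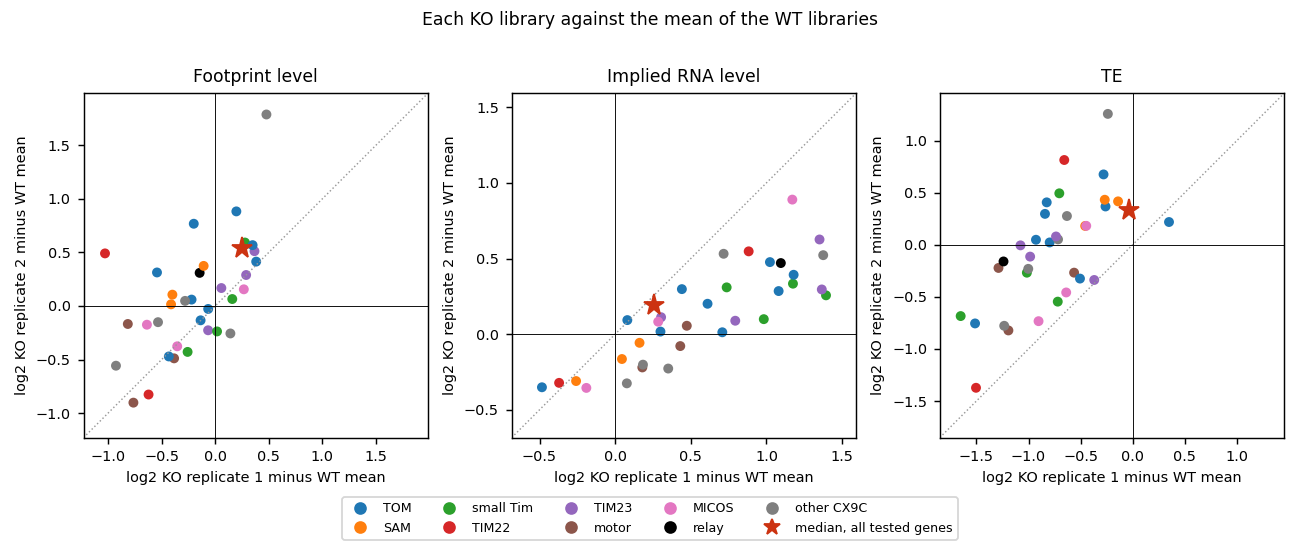
Log2 difference of KO replicate 1 (horizontal) and KO replicate 2 (vertical) from the mean of the WT libraries for the 34 genes with a TE in all libraries, coloured by complex, with the median of all tested genes as a star. In RNA 31 genes lie below the dotted line of equal differences, and in TE 33 lie above it. The star lies on the same side in each, at 0.26 and 0.19 for RNA and -0.03 and 0.33 for TE. The shares of all genes on each side were not computed.

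Ratios of related genes within a library do not depend on scaling between libraries. In 4 pairs this could be computed, while Timm8a1, the paralogue of Timm8b, was listed at 0. For 2 WT and 2 KO libraries the smallest exact permutation p is 0.333, so no pair could pass. The MICOS ratio Chchd6 over Chchd3 in footprints was 0.0565 and 0.0518 (WT) against 0.0832 and 0.0782 (KO), and in RNA 0.0426 and 0.0273 (WT) against 0.0631 and 0.0597 (KO). Both KO libraries were above both WT libraries in each (two-sided exact permutation p = 0.333, adjusted over the 4 pairs 1 in footprints and 0.667 in RNA). Tomm40l over Tomm40 was 1.04 and 0.848 (WT) against 0.410 and 0.729 (KO) in RNA (exact p = 0.333, adjusted 0.667) and 0.370 and 0.197 (WT) against 0.286 and 0.236 (KO) in footprints (exact p = 1). The RNA ratio was lower in both KO libraries, and the footprint ratio overlapped. Timm17a over Timm17b was 4.24 and 6.64 (WT) against 4.52 and 4.88 (KO) in footprints and 15.5 and 10.6 (WT) against 8.61 and 11.1 (KO) in RNA, overlapping in both. Chchd2 over Chchd10 was 0.00772 and 0.00350 (WT) against 0.00619 and 0.00597 (KO) in footprints, where Chchd2 is uncertain, and 0.560 and 0.622 (WT) against 0.663 and 0.580 (KO) in RNA, also overlapping.

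Mitochondrial ribosomal protein genes and complex I subunits were set beside the import and cristae genes, by counts and medians only. The 77 tested mitochondrial ribosomal protein genes had a footprint median of -0.51, an RNA median of 0.14 and a TE median of -0.78 relative to all genes, beside -0.47, 0.14 and -0.55 in the import set. For footprints 71 of the 77 lay below the all-gene median. Complex I subunits lay lower in footprints, with a median of -0.82 relative to all genes and 37 of 39 below it. Their RNA median was also below that of all genes, at -0.12, and their TE median was -0.69. Both KO libraries were under both WT libraries in footprints for 34 of the 39 complex I genes (87.2%). The same held for 32 of the 77 ribosomal protein genes (41.6%) and 11 of the 37 import and cristae genes (29.7%). The share over all genes was 12.1%. The differences between these lists were not tested.

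**Figure D5:**
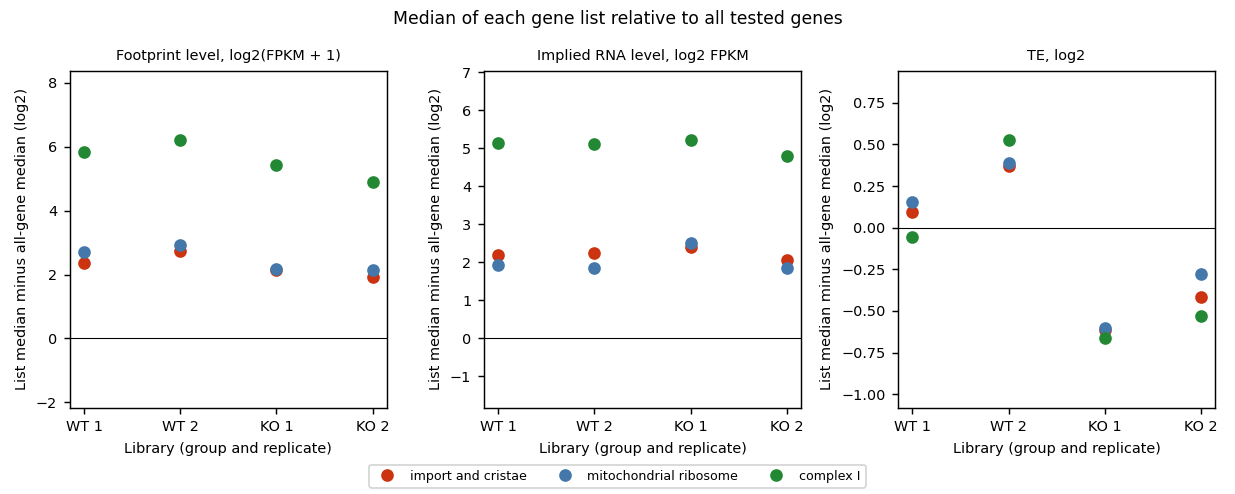
Median of each gene list minus the median of all tested genes (log2) in each library, for footprint level, implied RNA level and TE. In footprints and TE all 3 lists have lower values in both KO libraries than in both WT libraries, with the import set at 2.35 and 2.72 (WT) against 2.15 and 1.91 (KO) for footprints, while in RNA it is at 2.202 and 2.26 (WT) against 2.42 and 2.05 (KO).

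The other known genes of import and cristae, a list of 31 symbols of which 29 were found, included 1 gene that passed a test, for RNA, where 4.2% of all genes rose. Gfer (chr17:24693190-24696156), the sulfhydryl oxidase that recharges Chchd4 in the disulfide relay, had implied RNA levels of 5.63 and 6.90 (WT) against 36.5 and 16.9 (KO) FPKM and rose (difference 2.00 in log2 with SE 0.38, adjusted p = 0.0406). Both KO libraries were above WT, and KO replicate 1 was the highest. Without the mean-variance trend the adjusted p of Gfer was 0.0812, and it passed under the other alternatives tried. Under median-ratio scaling Apool also passed, lower in KO, and without KO replicate 2, 6 genes of the list rose and 3 fell. The footprint levels of Gfer, 31.8 and 28.2 (WT) against 54.1 and 59.5 (KO), were also higher in both KO libraries without passing (difference 0.90 in log2 with SE 0.31, adjusted p = 0.248). The TE of Gfer was 5.66 and 4.09 (WT) against 1.48 and 3.52 (KO). Footprints of the 29 genes had a median of -0.56 relative to all genes, with 25 below the all-gene median and 0 past the test. The largest positive footprint difference after Gfer was that of Mtch2, an outer membrane insertase, at 55.2 and 49.2 (WT) against 43.1 and 114 (KO), high in KO replicate 2 only. The lowest were Mtx3, another metaxin, at 18.2 and 6.11 (WT) against 5.27 and 3.34 (KO) (log2 difference -1.16, adjusted p = 0.397), and Aifm1, the partner that holds Chchd4 at the inner membrane, at 214 and 309 (WT) against 129.7 and 126 (KO) (log2 difference -1.004, adjusted p = 0.193). Both were below WT in each KO library. In RNA, the chaperonin partner Hspe1 followed Gfer at 49.0 and 46.6 (WT) against 122 and 66.7 (KO), and the MICOS subunit Apool was lowest at 27.8 and 27.4 (WT) against 17.7 and 16.1 (KO) (log2 difference -0.71), before Mtx3 at 5.54 and 6.24 (WT) against 2.99 and 4.72 (KO). The RNA median was -0.15 relative to all genes. In TE, 25 of the 29 were below the all-gene median. Agk, a lipid kinase and TIM22 subunit, was highest at 5.20 and 3.50 (WT) against 7.07 and 6.09 (KO) (log2 difference 0.62), before the inner membrane insertase Oxa1l at 4.84 and 3.52 (WT) against 4.65 and 5.39 (KO), and Dnajc15, a motor J-protein, was lowest after Gfer at 18.5 and 16.4 (WT) against 6.03 and 13.2 (KO). The TE value of Dnajc15 in KO replicate 1 was the lowest of its 4 libraries.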

How the data were processed

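The submitters' processing notes name Cufflinks 2.2.1, HTSeq 0.13.5, STAR 2.7.4a, Bowtie 1.3.1, FastQC 0.11.9 and cutadapt 3.7 with GRCm38 (mm10). Settings, strand and counted region were not given in the sources used here. The authors deposited footprint FPKM and TE, a ratio to RNA, per Ensembl gene. A TE of 0 was treated as missing. How the RNA libraries were made was not given in the sources used here.

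limma 3.58.1 in R 4.3.3 (lmFit, eBayes with a trend, two-sided, no covariates) was fitted over all genes with at least 1 FPKM in at least 2 libraries, on log2(FPKM + 1), log2(TE) and log2(FPKM / TE), with Benjamini-Hochberg adjustment; a fold on log2(FPKM + 1) understates low genes. TE and RNA needed a TE above 0 in all 4 libraries. The procedure was tested on simulated data. Replicate numbers were not taken to pair libraries: deviations of same-numbered libraries correlated at -0.056 (footprints), -0.018 (TE) and -0.219 (RNA). The gene set, lists and roles were chosen with earlier results of these data known. Given in full were the 5 highest and 5 lowest differences per measure, paralogue pairs and the most abundant member of each complex; from the other import genes, those past the test and the 2 extremes on each side. Further genes were named after their values were seen. Alternatives covered scaling, replicate block, each library left out, filters, gene classes, trend and pseudocount. Sequences are from RefSeq.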

Additional observations from a re-analysis of the deposited data

How the results depend on the processing

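Over all tested genes of the set, median-ratio scaling turned 7 of 37 footprint, 7 of 34 RNA and 4 of 34 TE differences. Leaving out each library in turn, 17, 8 and 17 genes turned at least once, and the other pseudocounts turned 0. The replicate block, the fit without a trend, the filters and the gene classes leave the fitted difference of a gene unchanged. With these no turn was possible, so they do not bear on direction. The values that follow are for the 5 highest and 5 lowest genes of each measure. These were picked by the size of their difference in the same data, so a turn was less likely. Many of the alternatives counted also cannot change a difference, so the count does not measure stability. Of 306 such differences recomputed, 294 kept their direction and 12 turned. Among them, scaling turned TE of Samm50 and Mtx1 to -0.0082 and -0.064. Leaving out 1 library at a time, the ranges of those that turned were, in log2: Timm23 footprints -0.58 to 1.51, Chchd7 RNA -0.33 to 0.077, and in TE Chchd5 -0.24 to 1.26, Tomm70a -0.28 to 0.675, Samm50 -0.26 to 0.54 and Mtx1 -0.27 to 0.43. For paralogue ratios they were -0.50 to 0.15 (Timm17a/Timm17b footprints), -0.51 to 0.40 (Tomm40l/Tomm40 footprints), -0.35 to 0.80 (Chchd2/Chchd10 footprints) and -0.026 to 0.17 (Chchd2/Chchd10 RNA). The set's RNA median relative to all genes ranged from -0.10 to 0.28, its TE median from -0.71 to -0.32, and the number of its genes that rose in RNA from 0 to 15; the TE median nearest 0 and the negative RNA median came without KO replicate 1, the 15 without KO replicate 2, where 2632 genes of all rose and 1110 fell. Without KO replicate 2, RNA differences past the test included Chchd6 (1.17), Timm50 (1.35), Chchd1 (1.38), Timm17b (1.37) and Timm13 (1.39). The cause was not tested.

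With the replicate block, a paired fit, 0 genes of the set were called in any measure, while the calls over all genes were 143 for footprints, 1429 for RNA and 178 for TE, against 57, 718 and 0 without it. With a crossed pairing of the replicate numbers for RNA, added after seeing the data because of the correlation of -0.219, 11 genes of the set rose, and 2412 of all genes rose and 829 fell. The labels give no such pairing and it was picked from these data, so its calls cannot show a rise. Calls over all genes also differed for footprints with the stricter filter (182), with coding named genes (230), without a trend (36), with a pseudocount of 0.1 (34), with no filter (8) and with any library left out (0), and for RNA with the stricter filter (258), without a trend (67) or without WT replicate 2 (1160) or KO replicate 2 (3742). The set kept 0 calls in footprints and TE under every alternative tried. With 2 libraries a group and unknown read totals, the data cannot show small differences of single genes.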
